A study of Mus musculus with 16 samples.

Results

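The first transcripts to change in mouse aortic smooth muscle cells given PDGF-BB were sought in 6 of the 16 arrays of the series. The arrays taken after 30 min (2, 1 per genotype) were compared with those taken at 0 and 15 min (4), with genotype as a block. Transcript levels were read with Affymetrix mouse gene arrays. The wild-type (WT) cells and the cells without Hey2 (Hey2 KO), a transcriptional repressor downstream of Notch, both had a mixed C57BL/6 and 129SvJ background. They had been isolated by enzymatic digestion from aortas freed of adventitia, cultured, and starved of serum before human PDGF-BB was added at 5 ng/ml. The 6 groups are therefore WT and Hey2 KO cells at 0, 15 and 30 min, each with 1 array. The labels give neither the Hey2 allele nor the number of animals or isolates behind a genotype, so p-values measure only the spread between these arrays, which may be technical. No culture given fresh medium alone at 15 or 30 min was analysed here, so the response to PDGF-BB and to the washing and medium change cannot be told apart.

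PDGF-BB binds the receptor tyrosine kinases PDGF receptor alpha and beta and activates the MAP kinase cascade within minutes. The first genes to respond, the immediate-early genes, are transcribed without new protein synthesis, because the factors that switch them on (SRF with its partners, CREB) are already present and are activated by phosphorylation. Many of them encode transcription factors of the FOS, JUN, EGR and NR4A families. Others encode phosphatases and RNA-binding proteins that shut the signal down again, and secreted factors.

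In all, 13738 genes passed the filter on dim signals and were tested. A gene was called when the adjusted p of limma was under 0.05, after Benjamini-Hochberg adjustment over all of them. Signals below are normalized intensities, and differences are on the log2(signal + 4.6) scale, which understates the change of dim genes. The 6 arrays were unequal in brightness. The 2% trimmed mean of the deposited signal was 81.0 on the WT 30 min array and lay between 187 and 252 on the other 5. The spike-in signal of that array, 506, lay within the 407 to 627 of the 4 earlier arrays. Its ratio of 3' to 5' Actb signal was 3.88, the highest of the 6, and that of the Hey2 KO 30 min array was 1.95, the lowest. The Hey2 KO 15 min array was next to the highest, at 3.71. For Gapdh the Hey2 KO 15 min array had the highest ratio, 5.65, against 4.49 on the WT 30 min array. The WT 30 min array is 1 of the 2 arrays at 30 min, and the part of its brightness and RNA quality in the results was not tested; counts of calls without it are given below, except for the genotype difference, which could not be fitted without it. The deleted gene, Hey2, read 101, 102 and 113 in WT cells and 34.3, 63.3 and 42.2 in Hey2 KO cells at 0, 15 and 30 min. Smooth muscle alpha actin (Acta2) was among the bright genes on all 6 arrays, from 5203 to 8860. Of 16 contractile smooth muscle markers 15 passed the filter, and Myocd did not. They summed to 20200 to 30600 at 0 and 15 min and to 30600 (WT) and 19700 (Hey2 KO) at 30 min. Of 10 endothelial markers 4 passed the filter, with a summed signal of 69.4 to 103 at 0 and 15 min and 102 (WT) and 72.3 (Hey2 KO) at 30 min, and Pecam1, Cdh5 and Vwf did not pass. Of 10 leukocyte markers 5 passed, summing to 552 to 823 early and 489 and 822 at 30 min, and Ptprc did not pass. The 8 of 10 fibroblast markers that passed summed to 4550 to 6820 early and 6200 and 5090 at 30 min. The 12 epithelial and mesothelial markers summed to 1860 to 15400 early and to 1770 in WT and 15500 in Hey2 KO cells at 30 min, and the low end was WT at both stages. In bulk RNA such as this, fewer cells of a type and less RNA per cell cannot be told apart.

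Transcripts had already moved at 15 min. Against 0 min, 12 genes rose (0.0873% of the genes tested) and 0 fell; at an unadjusted limma p under 0.05 there were 563 genes (4.1%). All 12 encode immediate-early proteins: the transcription factors Egr1, Egr2, Egr3, Fos, Fosb, Jun, Junb and Nr4a1, the nuclear protein Ier2, the MAP kinase phosphatase Dusp1, the mRNA-destabilizing protein Zfp36 and the antiproliferative protein Btg2. By 30 min all 12 were called against 0 min. They had been selected against the same 0 min arrays in the same fit, so nothing is read from that. Of the 12, 11 were also called higher at 30 against 15 min. The exception was Fos, which read higher at 30 than at 15 min in both genotypes but did not pass the test.

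Egr1, a zinc finger transcription factor, read 1824 in WT and 1431 in Hey2 KO cells at 0 min, 7028 and 6163 at 15 min, and 10020 and 9814 at 30 min. Its difference of 15 against 0 min was 2.02 (SE 0.08, adjusted p = 1.72e-06, limma), and it rose by a further 0.59 to 30 min (adjusted p = 0.00852). Most of its rise thus fell in the first 15 min. Fos, the partner of Jun in the AP-1 complex, went from 452 and 1267 at 0 min to 4799 and 5292 at 15 min and 8583 and 8204 at 30 min. The 15 min difference of Fos was 2.73 (SE 0.28, adjusted p = 0.00346), while that from 15 to 30 min, 0.73, did not pass the test (adjusted p = 0.477). Ier2 read 449 and 500 at 0 min, 2350 and 2301 at 15 min and 5742 and 5423 at 30 min, with a 15 min difference of 2.28 (SE 0.09, adjusted p = 1.72e-06). For these 3 genes both 15 min arrays lay above both 0 min arrays. They were called on these same arrays, so nothing is read from that.

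For Egr2 and Egr3, which had low signals at 0 min, the difference from 15 to 30 min was larger than that from 0 to 15 min; whether the intervals differ was not tested. Egr2 read 16.1 in WT and 21.3 in Hey2 KO cells at 0 min, 181 and 172 at 15 min, and 3408 and 3685 at 30 min. Its difference was 2.97 at 15 min against 0 min and 4.29 at 30 against 15 min (SE 0.15 for both, adjusted p = 1.21e-05 and 6.82e-07). Both genotypes thus passed through nearly the same levels at each time. Egr3, a relative of Egr2, rose by 1.64 at 15 min and 4.58 from 15 to 30 min. Nr4a1, an orphan nuclear receptor, rose by similar amounts in both intervals, 2.77 and 2.87. Fosb, another FOS family member, read 3.63 and 11.9 at 0 min, under the filter signal of 15.5, then 57.1 and 55.9 and finally 637 and 1023.

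The other 15 min rises were smaller. Jun rose by 1.50, Junb by 1.59, Btg2 by 1.82, Zfp36 by 1.15 and Dusp1 by 0.81 (adjusted p from 0.000237 to 0.00415). Dusp1 was bright before PDGF-BB, at 3006 in WT and 3036 in Hey2 KO cells. The 4 falls at 15 min with the smallest p of one sign in both genotypes included H3f3b, at -1.40 (adjusted p = 0.0945), and Nrip2, at -2.59 (adjusted p = 0.0918), neither of which passed the test; nor did Aif1l and Fen1 (adjusted p = 0.456 for both). The 15 min count was 5 without the WT 15 min array and between 8 and 31 without one of the other 5 arrays (31 without WT 0 min, 25 without WT 30 min, 23 without Hey2 KO 30 min, 19 without Hey2 KO 0 min), and 0 without the intensity trend in the spread, where 609 genes had an unadjusted p under 0.05.

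**Figure D1:**
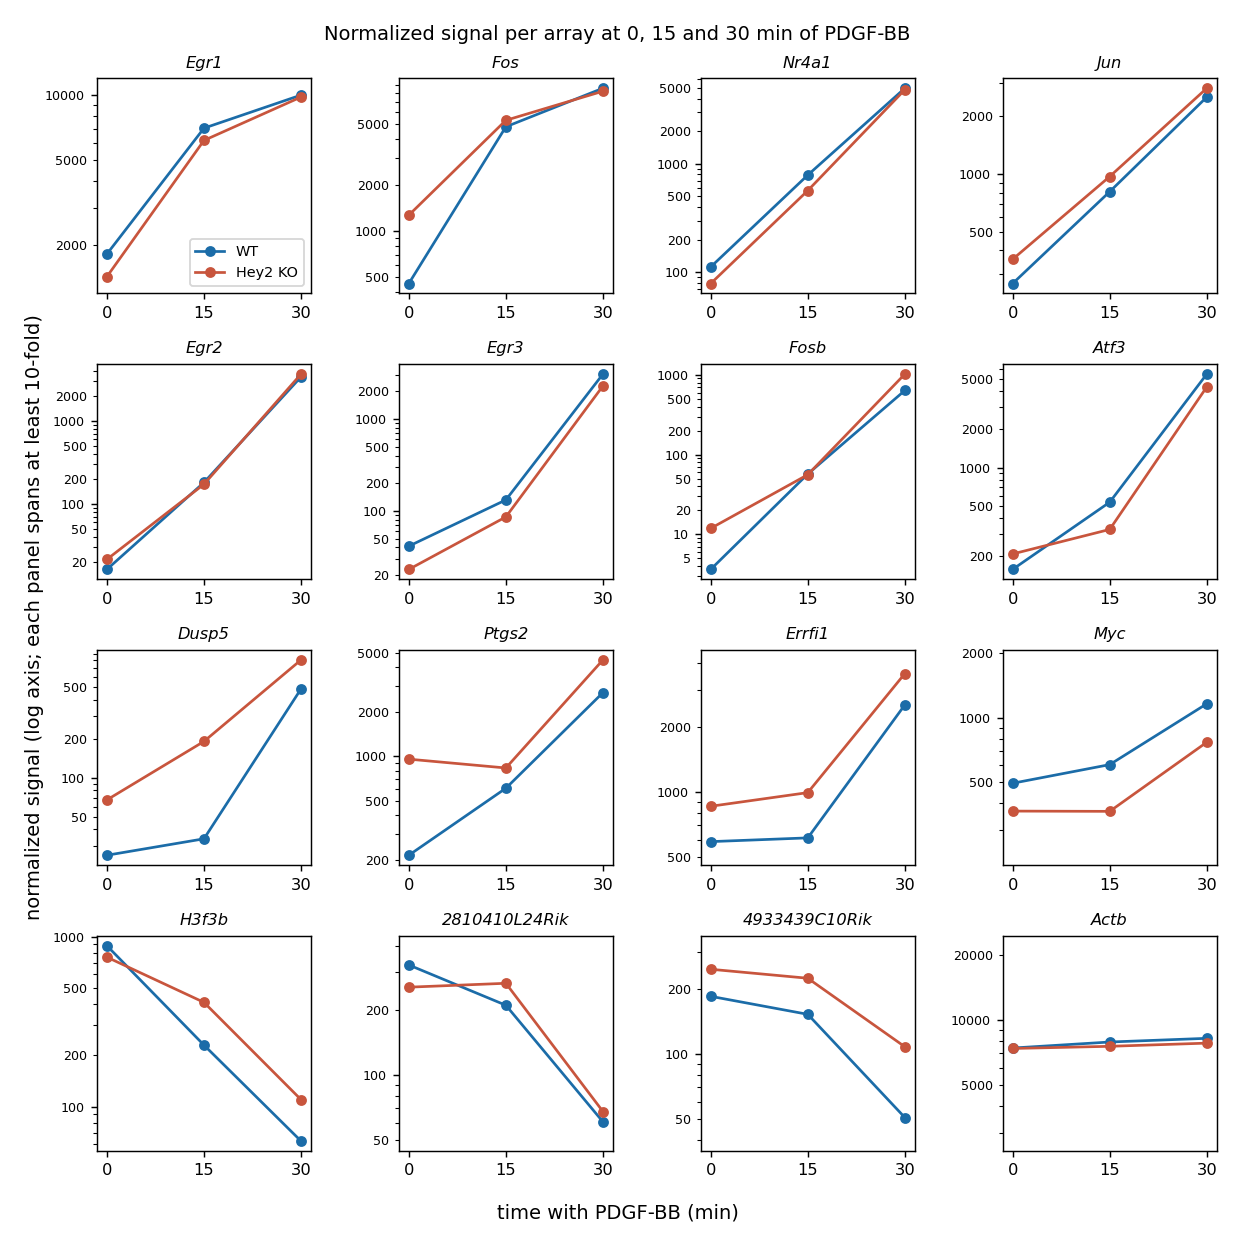
Normalized signal (log axis) of 16 genes on the 6 arrays against time with PDGF-BB in minutes; each point is 1 array and lines join the arrays of a genotype (blue WT, red Hey2 KO). Egr1 and Fos gain most of their signal by 15 min, Atf3, Dusp5 and Errfi1 between 15 and 30 min, and H3f3b falls from 883 and 756 to 62.7 and 110, while Actb stays between 7382 and 8231.

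At 30 min against 0 and 15 min together, 83 genes rose (0.604% of those tested) and 10 fell (0.0728%), and 1388 (10.1%) had an unadjusted p under 0.05. Of the 83, 44 rose at least 2-fold and 15 at least 4-fold, and of the 10 that fell, 8 did so at least 2-fold. In both genotypes the 30 min array lay beyond both earlier arrays for all 83 and all 10; these genes were selected on the same 6 arrays, so nothing is read from that (over all genes it held upward for 1888, 13.7%, and downward for 2336, 17%). This comparison sets the 15 min arrays among the baseline, so a change from 0 to 15 min adds to the spread against which it is tested. Of the 12 genes called at 15 min only Egr2, Egr3, Fosb, Nr4a1, Jun and Zfp36 were called here. The values of the other 6 were 1.60 for Egr1 (SE 0.55, adjusted p = 0.379), 2.10 for Fos (adjusted p = 0.407), 2.40 for Ier2 (0.198), 2.32 for Btg2 (0.0982), 2.19 for Junb (0.0688) and 1.01 for Dusp1 (0.111). Against 0 min alone, 82 genes rose (0.597%) and 7 fell (0.051%), together 0.648%, where 1055 (7.68%) had an unadjusted p under 0.05, and 13 of the 82 were not called against 0 and 15 min. Against 15 min alone 63 rose (0.459%) and 5 fell (0.0364%), where 1275 (9.28%) had an unadjusted p under 0.05. Without the WT 30 min array 76 rose and 25 fell against 0 min, and 53 rose and 7 fell against 15 min. Without the Hey2 KO 30 min array the numbers were 97 and 51 against 0 min and 73 and 59 against 15 min. Against 15 min, 100 genes were called without Hey2 KO 0 min, 105 without WT 0 min, 32 without WT 15 min and 18 without Hey2 KO 15 min.

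The count of 93 calls was 23 without the WT 30 min array and 31 without the Hey2 KO 30 min array; 21 and 25 of these were among the 93. It was 3 without the genotype block and 6 without the intensity trend in the spread. With the signals as deposited, where the median of all genes shifted to -0.59, 11 genes were called, and Fosl2 and Zfp36l1 stood at -0.09 and -0.08.

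Many of the listed early transcription factors rose. Of 33 tested early transcription factors, 20 rose and 0 fell, with a median difference of 1.09 against -0.02 over all genes. Of all genes tested 0.604% rose. The list was chosen with earlier results of these data known, so its count is a description. The same share and limit apply to the other lists with rising genes below. The 20 became 5 without the WT 30 min array and 8 without the Hey2 KO 30 min array, and 15 to 18 without one of the other 4. Egr2 and Egr3 had the 2 largest differences of all genes, 5.78 (SE 0.80, adjusted p = 0.00741) and 5.41 (SE 0.46, adjusted p = 0.00047). Atf3, a stress-inducible factor of the ATF/CREB family, read 158 and 534 in WT cells at 0 and 15 min and 5467 at 30 min, and 209, 326 and 4328 in Hey2 KO cells. Its difference was 4.12 (SE 0.36, adjusted p = 0.000481). The 15 min difference of Atf3, 1.18, did not pass the test (adjusted p = 0.148), so the call rests on the 30 min arrays.

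All 3 NR4A orphan nuclear receptors rose. Nr4a1 read 112, 788 and 4987 in WT and 78.7, 567 and 4836 in Hey2 KO cells, a difference of 4.25 (SE 0.75, adjusted p = 0.0318). Nr4a2 read 131, 82.9 and 364 in WT and 49.8, 69.2 and 869 in Hey2 KO cells, a difference of 2.77 (SE 0.37, adjusted p = 0.00654). Nr4a3 was under the filter signal on all 4 earlier arrays, from 1.02 to 9.23, and read 48.2 and 190 at 30 min, so its difference of 3.59 depends on the added 4.6. At 15 min only Nr4a1 of the 3 had moved past the test.

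Among AP-1 proteins, Fosb rose by 4.93 (SE 0.67, adjusted p = 0.00721) and Jun by 2.33 (SE 0.41, adjusted p = 0.0318). Jun read 269, 811 and 2525 in WT and 360, 972 and 2808 in Hey2 KO cells, so that each time point lay above the one before in both genotypes. The later AP-1 members Fosl1 and Fosl2 rose by 1.71 and 0.45 and showed no call at 15 min. Maff, a small Maf protein, rose by 1.09. The KLF zinc finger factors that rose were Klf2 (1.74), Klf6 (0.81), Klf10 (0.71) and Klf4 (0.46), the last of these from signals of 3458 to 3990 to 4853 and 5224. Csrnp1, a nuclear protein, rose by 2.79 (SE 0.17, adjusted p = 3.76e-05), from 89.5 and 115 to 750 in WT and from 219 and 337 to 1856 in Hey2 KO cells. Myc, which drives cell growth, rose by 1.07 (SE 0.11, adjusted p = 0.00124): it read 496, 605 and 1161 in WT and 368, 367 and 769 in Hey2 KO cells. Srf, the factor that binds the CArG box in many early genes, rose by 0.67 (SE 0.11, adjusted p = 0.0235). Bhlhe40 and Ier5 rose by 0.77 and 1.38. The 13 tested members without a call include Fos, Egr1, Ier2 and Junb, which were called at 15 min.

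Inhibitors of the signal rose at the same time. Of 34 tested feedback inhibitors and mRNA decay factors, 15 rose and 0 fell (median 0.50); 5 rose without the WT 30 min array and 5 without the Hey2 KO 30 min array. Dusp5, a nuclear phosphatase of ERK, read 25.3, 33.9 and 484 in WT and 67.6, 191 and 809 in Hey2 KO cells, a difference of 3.31 (SE 0.35, adjusted p = 0.00176). Dusp6, which removes phosphate from ERK in the cytoplasm, rose by 1.18 and Dusp8, which acts on JNK and p38, by 1.95. Dusp5 read higher in Hey2 KO than in WT cells at each of the 3 times, with 1 array per genotype and time.

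Errfi1, an inhibitor of EGF receptor kinases, had the smallest p of all genes: it read 588, 613 and 2548 in WT and 859, 995 and 3564 in Hey2 KO cells, a difference of 2.01 (SE 0.09, adjusted p = 4.38e-06). It had not moved at 15 min beyond the spread of the arrays (0.13, adjusted p = 0.988). Zfp36 (tristetraprolin), which targets mRNAs with AU-rich elements for decay, read 456, 1178 and 3849 in WT and 570, 1089 and 3426 in Hey2 KO cells, a difference of 2.25 (SE 0.32, adjusted p = 0.00891). Its relative Zfp36l1 rose by 0.45. Arc, known from neurons as an activity-regulated cytoskeletal protein, was under the filter signal on all 4 earlier arrays (1.76 to 4.28) and read 212 and 248 at 30 min; the difference of 4.99 depends on the added 4.6. The other calls in the list were Ier3 (1.14), Spry2 (0.67), an inhibitor of receptor tyrosine kinase signalling, Trib1 (1.47), Socs3 (1.13), an inhibitor of JAK kinases, Tob1 (0.63), Phlda1 (0.99), Rhob (0.78) and the clock gene Per1 (1.29).

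Genes of secreted and surface proteins followed without a call at 15 min. Of 22 tested members 10 rose and 0 fell (median 0.64), and 3 rose without the WT 30 min array and 2 without the Hey2 KO 30 min array. At 15 min 0 of the 22 were called (2 without Hey2 KO 0 min), and their median was 0.01. Ptgs2 (cyclooxygenase 2), which makes prostaglandin precursors, read 214, 608 and 2695 in WT and 956, 834 and 4487 in Hey2 KO cells, a difference of 2.60 (SE 0.31, adjusted p = 0.00334). The EGF receptor ligands Ereg and Hbegf rose by 1.51 (SE 0.14, adjusted p = 0.000548) and 0.68 (SE 0.13, adjusted p = 0.0417). Ereg read 176, 228 and 519 in WT and 227, 219 and 714 in Hey2 KO cells. The cytokines Il6 and Lif rose by 1.33 and 1.03 and the chemokines Ccl2 and Cxcl1 by 0.96 and 0.82. F3 (tissue factor), the starter of blood coagulation, rose by 0.72, the matrix protein Ccn1 by 0.64 and the matrix protease Adamts1 by 0.57. The other 3 probe sets of Ccn1 disagreed, at 0.79, -0.13 and -0.22, and none of them was called (adjusted p = 0.052, 0.89 and 0.785 over probe sets). Cxcl1 was bright throughout, from 1654 to 2174 early and at 3027 and 3904 at 30 min.

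Outside these lists, the largest rise was that of Apol8, an apolipoprotein L gene, at 2.02 (SE 0.30, adjusted p = 0.0115); it read 10.99, 23.7 and 77.0 in WT and 20.7, 34.4 and 128 in Hey2 KO cells. Nfil3, a bZIP repressor, rose by 1.95, Nfkbiz, a nuclear IkappaB protein, by 1.85 and Ifrd1 by 1.73. Plk3, a polo-like kinase, rose by 1.47, and Mir22hg, the host gene of a microRNA, by 0.88. These were picked out after their values were seen, except Apol8. Of the 93 called genes 41 had further tested probe sets, 64 in all: 54 had the sign of the call, 16 were called the same way and 0 the opposite way. The 10 of opposite sign belong to Ccn1 (2), Dus2, Egr3, Fosl2, Nr4a2, Ppp1r3c, Pvr, Slc25a25 and Spty2d1. Of 14 heat shock and endoplasmic reticulum stress genes, 4 rose and 0 fell (1 without the WT 30 min array, 0 without Hey2 KO 30 min and 2 without Hey2 KO 0 min): the cochaperone gene Dnajb1 (1.02), the chaperone gene Hspa1a (0.97), Hmox1 (0.67), which encodes heme oxygenase 1, and Atf4 (0.56), a factor of the integrated stress response. Ddit3, a target of Atf4, stood at 0.57 without passing the test (adjusted p = 0.0536).

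**Figure D2:**
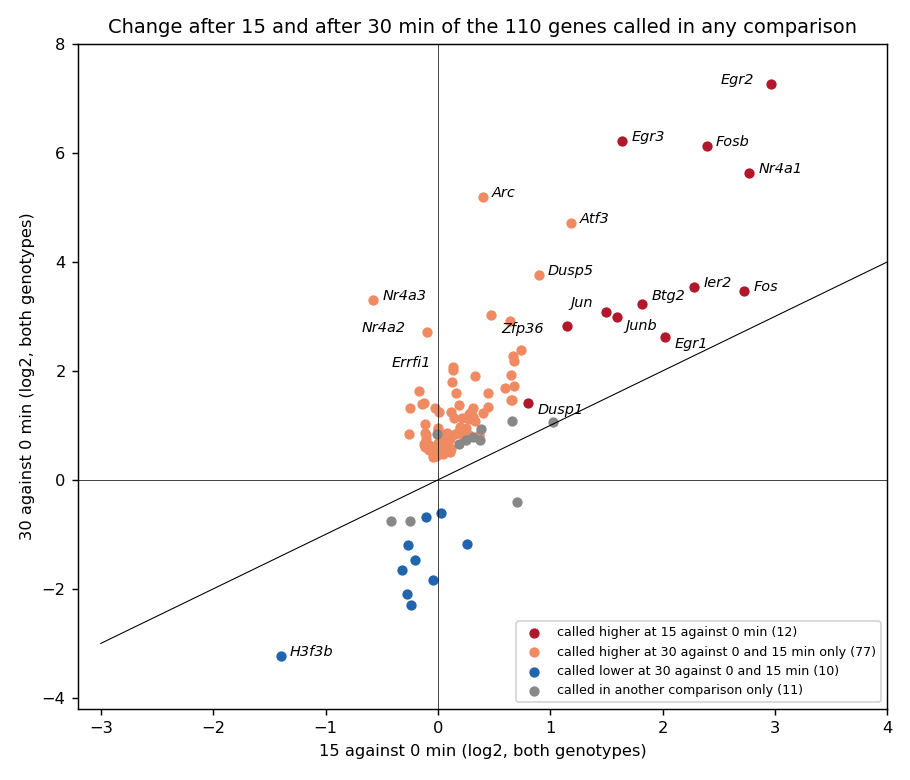
Difference of 15 against 0 min (x axis, log2) and of 30 against 0 min (y axis, log2), both genotypes together, for the 110 genes called in any comparison; points on the diagonal would have the same difference at both times. The 12 genes called at 15 min (dark red) lie above the diagonal, Fos and Egr1 nearest to it among the larger ones, and Arc and Nr4a2 lie near 0 on the x axis.

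At 15 min the order of the arrays already leaned upward for many of the genes called at 30 min. Of the 83, 47 (56.6%) were higher at 15 than at 0 min in both genotypes, against 25.5% of all genes, and 8 (9.64%) were lower in both, against 25.6% of all genes. Their median difference at 15 min was 0.15, and at 30 min 1.03. The share is a description, since the 15 min arrays are part of the baseline of the 30 min comparison.

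Promoter sequences are shown for 5 genes of the early response. The CArG box and the cAMP response element are the sites through which SRF and CREB act on early genes. All 5 promoters hold a motif match, so they do not stand for the rising genes as a set. The promoters of Atf3, Nr4a3, Nr4a2, Ptgs2 and Jun held none of the motifs searched. Whether shared sites underlie the rises was not tested. Of the 5, Btg2 was not among the 83 rising genes, so its cAMP response element lies outside the shares given for them. RefSeq promoters (GRCm38.p6) were matched by symbol for 63 of the 83 rising genes, with 85 start sites; the window searched ran from 250 bases before to 50 after the start. The bases before the start are printed 5' to 3' on the gene's strand, with motif matches in capitals: CArG boxes in Dusp5, Zfp36 and Srf, the EGR site GCGGGGGCG in Zfp36 and Srf, and the cAMP response element TGACGTCA in Dusp8 and Btg2.
Dusp5, chr19:53528895-53529144, + strand: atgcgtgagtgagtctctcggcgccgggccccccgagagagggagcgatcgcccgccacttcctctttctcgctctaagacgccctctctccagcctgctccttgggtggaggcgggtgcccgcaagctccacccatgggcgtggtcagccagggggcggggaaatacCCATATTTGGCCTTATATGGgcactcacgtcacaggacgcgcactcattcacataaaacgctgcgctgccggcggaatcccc
Zfp36, chr7:28379229-28379478, - strand: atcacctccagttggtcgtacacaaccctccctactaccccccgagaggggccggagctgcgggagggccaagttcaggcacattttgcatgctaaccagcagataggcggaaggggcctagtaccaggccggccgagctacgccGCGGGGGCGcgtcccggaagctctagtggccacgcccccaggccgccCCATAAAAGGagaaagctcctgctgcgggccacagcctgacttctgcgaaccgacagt
Srf, chr17:46556163-46556412, - strand: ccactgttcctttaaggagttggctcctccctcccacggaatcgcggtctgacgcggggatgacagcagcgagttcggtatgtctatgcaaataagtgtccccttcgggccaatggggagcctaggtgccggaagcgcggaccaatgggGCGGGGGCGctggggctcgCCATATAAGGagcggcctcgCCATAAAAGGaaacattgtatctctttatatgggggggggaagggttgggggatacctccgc
Dusp8, chr7:142095285-142095534, - strand: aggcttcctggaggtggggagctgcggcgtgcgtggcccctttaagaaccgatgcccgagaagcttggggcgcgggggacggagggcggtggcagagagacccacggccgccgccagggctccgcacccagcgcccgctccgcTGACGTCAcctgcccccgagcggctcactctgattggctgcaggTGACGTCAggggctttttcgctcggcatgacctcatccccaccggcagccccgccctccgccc
Btg2, chr1:134079156-134079405, - strand: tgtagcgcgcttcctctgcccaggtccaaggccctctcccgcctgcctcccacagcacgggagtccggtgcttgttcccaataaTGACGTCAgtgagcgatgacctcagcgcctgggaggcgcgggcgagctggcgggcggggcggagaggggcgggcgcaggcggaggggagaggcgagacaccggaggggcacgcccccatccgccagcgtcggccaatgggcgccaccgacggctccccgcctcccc

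In the Dusp5 promoter 2 CArG boxes stood end to end, starting 82 and 72 bases before the start, and in the Srf promoter 2 started at 82 and 62 bases. The Egr2 entries held a CArG box for 4 of 5 listed starts, but overlapping windows among them share the same box, CCATATATGG. Zfp36 held 1, starting 58 bases before the start. These 4 genes were 6.35% of the 63 rising genes with a promoter, against 1.57% of the 11050 tested genes with one. The cAMP response element TGACGTCA was found in 8 rising genes (12.7%, against 3.29%): Errfi1, Dusp8, with 2 copies, Maff, and 5 others. The EGR site GCGGGGGCG or GCGTGGGCG was found in 12 (19%, against 7.39%), among them Fosb, Nr4a1, Klf2 and Klf4. The AP-1 site TGANTCA was found in 6 (9.52%, against 6.69%), among them Csrnp1, with 2 copies, and Il6, Lif and F3. Among the 9 falling genes with a promoter, 1 (11.1%) held a CArG box and 1 (11.1%) a cAMP response element, shares above and close to those of the rising genes, and 0 held either of the other sites. All motifs were searched on both strands, and a match is a description of letters, not of binding. The rises of Dusp5 and Srf, whose promoters each hold a pair of CArG boxes, were 3.31 and 0.67. Whether the number of boxes goes with the size of a rise was not tested.

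Few of the genes tested fell within 30 min. Of 5224 probe sets with no gene symbol or several, which were outside the gene tests, 13 were called lower and 9 higher. H3f3b, one of the genes for the replacement histone H3.3, read 883, 230 and 62.7 in WT and 756, 410 and 110 in Hey2 KO cells, a difference of -2.53 (SE 0.42, adjusted p = 0.0223). This value came from the single probe set that carries that symbol alone. The other 5 probe sets listing H3f3b also list further genes and were brighter, with mean signals of 3932 to 6514 against 409. Their differences ran from -0.03 to 0.35 and none was called (adjusted p from 0.083 to 0.992 over all probe sets). The fall is therefore that of 1 probe set, not of the H3.3 transcripts those 5 probe sets measured. Of 4 tested variant histone genes H3f3b was the only one called, and 0 of the 4 were called without the WT 30 min array or without any 1 of the 3 Hey2 KO arrays.

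The differences of the other 9 falling genes ran from -2.18 to -0.61. 2810410L24Rik read 325, 211 and 60.5 in WT and 256, 267 and 67.6 in Hey2 KO cells, a difference of -1.96 (SE 0.17, adjusted p = 0.000481), and 4933439C10Rik read 186, 153 and 50.7 and 248, 226 and 108, a difference of -1.37 (SE 0.16, adjusted p = 0.00341). Another probe set of 2810410L24Rik fell too, by 1.76 (adjusted p = 0.0116 over probe sets), whereas the other 2 of 4933439C10Rik, at -0.53 and -0.32, did not pass. Acrbp, known as an acrosin-binding protein of sperm, fell by 2.18, and Mm2pr fell by 1.81, both from signals under 100 to below the filter signal on 1 and both 30 min arrays, so these sizes depend on the added 4.6. AA386476 (-1.49), Dus2 (-1.31), which modifies transfer RNA, and Pcdhgc4 (-1.06), a protocadherin, fell as well. A second, dimmer probe set of Dus2 stood in the opposite direction, at 2.15 (adjusted p = 0.0993 over probe sets), so the fall of Dus2 is that of 1 of its probe sets. A dimmer probe set of Ppp1r3c stood at 0.85 (adjusted p = 0.511). Ppp1r3c, which directs protein phosphatase 1 to glycogen, read 1778, 1595 and 1192 in WT and 300, 287 and 171 in Hey2 KO cells, a difference of -0.63 (SE 0.10, adjusted p = 0.0217). Cnot3, a subunit of the CCR4-NOT complex that shortens poly(A) tails, fell by 0.61 (adjusted p = 0.0468).

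The PDGF receptors and the kinases below them carry the signal that induces the early genes. Of 25 tested PDGF receptor and MAP kinase components 0 were called by limma, where 0.677% of all genes were called in either direction, so a count of 0 in a list of this size is not a result about its members. Their median was -0.05, and at an unadjusted p under 0.05 there were 0 higher and 2 lower. Pdgfrb read 4502, 4209 and 4599 in WT and 3668, 3341 and 3235 in Hey2 KO cells, a difference of -0.02 (SE 0.07), which turned to 0.10 with arrays scaled to one trimmed mean and 0.04 with cyclic loess. Pdgfra stood at -0.10 (SE 0.14), Grb2, the adaptor, at -0.51 (adjusted p = 0.302) and Map2k2 at -0.24 (adjusted p = 0.383).

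The gene groups known to respond later or to mark the differentiated cell had 0 calls as well, again near the 0.677% of all genes; without the WT 30 min array 1 quiescence gene was called lower. Among 27 quiescence, FoxO and BMP target genes the median was 0.10, with 4 higher and 2 lower at an unadjusted p under 0.05. Txnip, an inhibitor of glucose uptake, stood at -0.51 (SE 0.15, adjusted p = 0.309) and Id2, a BMP target, at 0.50 (adjusted p = 0.0562). Among 24 later response genes (ribosome biogenesis, amino acid and DNA replication genes) the median was 0, with 3 higher and 1 lower unadjusted. Fbl, a nucleolar methyltransferase, stood at -0.28 and Pcna, the replication clamp, at 0.26 (adjusted p = 0.293 and 0.194). Among 15 contractile smooth muscle markers the median was -0.07, with 0 higher and 1 lower unadjusted, Des at -1.63 (adjusted p = 0.206). Acta2 stood at -0.06 (SE 0.05), but at 0.23 with arrays scaled to one trimmed mean and 0.13 with cyclic loess. Among 15 cytoskeletal targets of SRF the median was 0.02, with 2 higher and 0 lower unadjusted, and Actb stood at 0.08 (SE 0.05). The 4 lists of endothelial, leukocyte, fibroblast and epithelial or mesothelial markers had 0 calls, with unadjusted counts of 0, 0, 2 and 2.

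**Figure D3:**
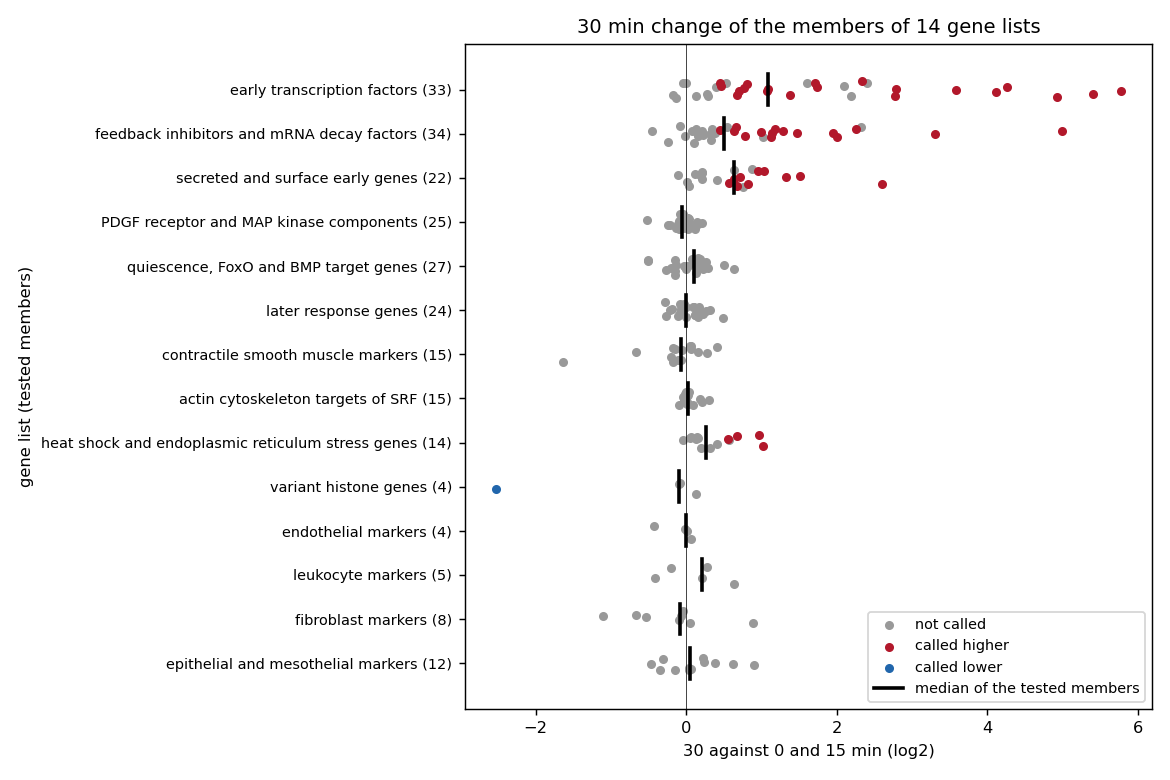
Difference of 30 against 0 and 15 min (log2, x axis) of each tested member of 14 gene lists (rows, with the number of tested members); red points were called higher, blue lower, grey not called, and the black bar is the median. Calls lie in the 3 lists of early genes (20, 15 and 10), the stress list (4) and, downward, in the variant histones (1).

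Whether the knockout changed the first response was tested as the Hey2 KO minus WT difference of the 30 min change. Of 13738 genes 1 passed (0.00728%), and 916 (6.67%) had an unadjusted p under 0.05. It was Rasl11b, a small GTPase of the RAS family, which was not among the 93: it read 319, 310 and 1328 in WT and 456, 464 and 355 in Hey2 KO cells. The change was 2.06 in WT and -0.37 in Hey2 KO cells, a difference of -2.43 (SE 0.20, adjusted p = 0.00848). Only the WT 30 min array stood apart from the other 5, and that array was the dimmest as deposited.

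None of the 93 called genes had a called genotype difference, and 12 had one at an unadjusted p under 0.05. The 93 were called on the change common to both genotypes, a rule that favours genes with like changes in both, so their likeness between genotypes is not a result. The smallest p among them was that of Nr4a2, whose change was 1.76 in WT and 3.79 in Hey2 KO cells (difference 2.03, SE 0.40, adjusted p = 0.319). Klf2 changed by 2.46 in WT and 1.02 in Hey2 KO cells (difference -1.43, SE 0.32, adjusted p = 0.39). The difference for Egr2 was -0.01 with an SE of 1.73, so genes that moved at 15 min had wide errors here, because the spread came from 15 against 0 min. The other genes with the smallest p were Endod1 (1.71), Hmga2 (1.26) and Rhoj (1.64), with a higher change in Hey2 KO cells, and Clcn5 (-1.87) and Pnmt (-3.05), with a lower one (adjusted p from 0.113 to 0.302). Across all genes the 30 min changes of the genotypes correlated at r = 0.18 (Spearman rho 0.129), given as a description over 13738 genes from 6 arrays normalized together. With the signals as deposited, 10152 genes would be called in this comparison, 10144 of them higher, with a median over all genes of 1.62. The WT 30 min array, dimmer than the rest, is the WT side of that difference.

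**Figure D4:**
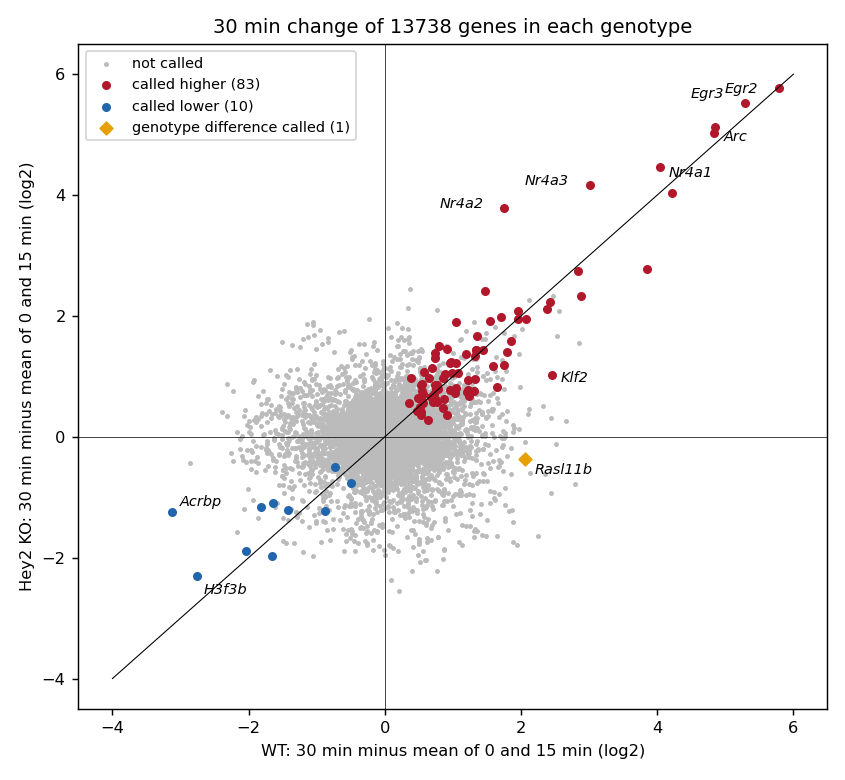
Change of 30 min against the mean of 0 and 15 min (log2) in WT (x axis) and Hey2 KO cells (y axis); each point is 1 of 13738 genes, red called higher, blue called lower, grey not called, and the line marks equal change. The 83 rising genes were selected on the change common to both genotypes and lie near the line, Nr4a2 above and Klf2 below it, and Rasl11b (yellow), the only gene with a called genotype difference, rises in WT alone by 2.06.

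The later arrays are given as a description of the courses after 30 min. The WT libraries labelled 60 and 480 min ran against the order of the Hey2 KO libraries: Fos read 212 and 7703 in WT and 6379 and 638 in Hey2 KO cells at the labelled 60 and 480 min. Those 2 times were left out in both genotypes, which leaves 6 times. Of the 83 rising genes, 26 (31.3%) were highest of these 6 times at 30 min in both genotypes and 43 (51.8%) at 120 to 240 min in both. These shares depend on the times left out, and such shares over all genes were not computed. All 83 read higher at 30 min than at 0 and 15 min in both genotypes, so none could be highest at 0 or 15 min. Over all 8 labelled times, 47 of the 83 (56.6%) were highest at 60 min and 15 (18.1%) at 30 min in Hey2 KO cells. In WT cells 50 (60.2%) were highest at the labelled 480 min and 4 (4.82%) at 30 min. At 240 min 63 of the 83 (75.9%) were above their 0 and 15 min levels in both genotypes. The share over all genes was not computed. The 83 were also selected for 0 and 15 min levels below that at 30 min, so lasting induction is not read from it.

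The courses after 30 min differed between the genes shown here. Jun was back from 2525 and 2808 at 30 min to 747 and 812 at 120 min, near its 15 min levels. Atf3 read 5307 in WT and 2753 in Hey2 KO cells at 120 min and 727 and 1246 at 240 min. Adamts1 fell below its starting level, from 2309 and 980 at 0 min through 3492 and 1454 at 30 min to 292 and 174 at 240 min. At the labelled 60 min Adamts1 read 248.5 in WT and 1737 in Hey2 KO cells, the latter above its 30 min level. In contrast, Ereg went on from 519 and 714 at 30 min to 3840 and 3414 at 120 min, Myc from 1161 and 769 to 3445 and 1893 at 240 min, and Dusp6 from 1168 and 1300 to 2050 and 2087.

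**Figure D5:**
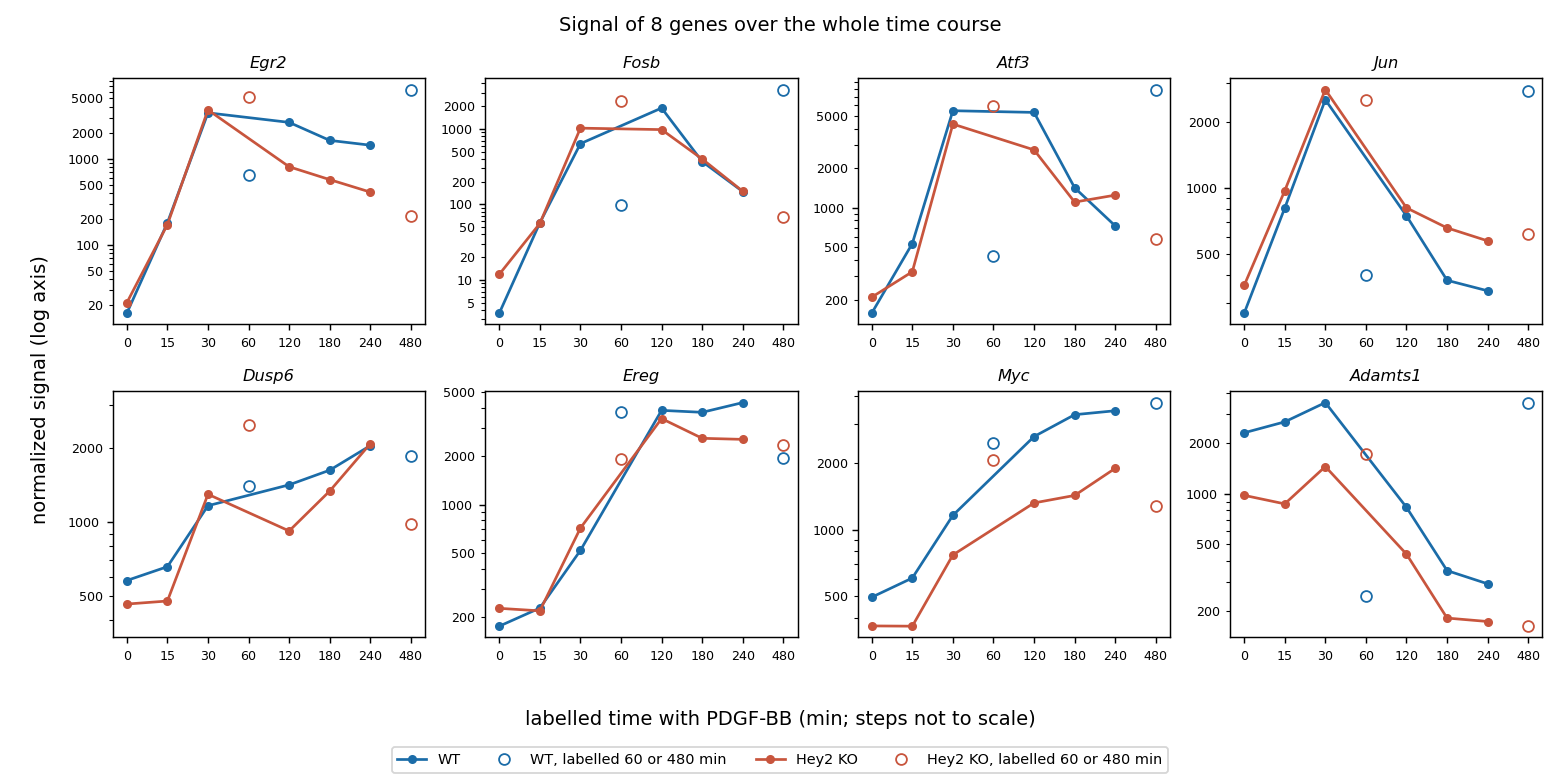
Normalized signal (log axis) of 8 genes called at 30 min over the labelled times of the series (x axis, minutes, steps not to scale); filled points joined by lines are single arrays of WT (blue) and Hey2 KO (red), and open circles are the arrays labelled 60 and 480 min. Jun and Adamts1 are lower at 120 than at 30 min, while Ereg, Myc and Dusp6 are higher at 240 than at 30 min. The open red circle of Adamts1 at 60 min lies above its 30 min point. The open blue circles run in the opposite order to the open red ones for Egr2, Fosb, Atf3 and Jun.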

How the data were processed

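The authors deposited linear signal intensities, 1 value for each of 45101 probe sets on each of 16 arrays. The submitters' processing notes name MAS5, whose version and scaling are not given in the sources used. Groups were taken from the sample titles. The members, gene lists and tests were chosen with earlier results of these data known.

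From these values all 16 arrays were quantile normalized together and transformed as log2(signal + 4.6), where 4.6 is the 20th percentile of the values as deposited. Testing required a normalized signal above 15.5 (40th percentile) on 2 or more of the 6 arrays at 0, 15 and 30 min. The platform annotation gave 1 gene symbol for 34945 probe sets, several for 932 and none for 9160, beside 64 controls. Of those with 1 symbol, 34741 matched RefSeq genes (GRCm38.p6) by identifier. The brightest tested probe set stood for its gene, giving 13738 genes.

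Tests were run with limma 3.58.1 (R 4.3.3), with the prior spread following intensity and p-values adjusted by Benjamini-Hochberg at 0.05. The 30 min comparison had a 30 min indicator plus genotype (3 residual degrees of freedom), the comparisons of single times had time as a factor plus genotype (2), and the genotype difference had the product term (2). With 6 arrays the precision is limited by their number. The number of members called is read against the share of all genes called.

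Named genes were the 15 largest rises and 10 largest falls called with no overlap in both genotypes, the 4 smallest p each way at 15 min, the 3 smallest each way for the genotype difference, up to 5 per list by p, and a fixed set of early genes. Further called list members are named to spell out the counts, after their values were seen.

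The fits were tested on simulated data drawn from the means and spreads of these genes, with independent noise and 200 of 13738 genes changed. For 30 against 0 and 15 min 78% of 2-fold and 94% of 4-fold changes were recovered, with 8.77% and 3.59% false calls; for 15 against 0 min 69.5% and 87%, with 11.5% and 6.95% false calls; for 30 against 15 min 71.5% and 94%, with 6.54% and 10.9%; for the genotype difference 37% and 76.5%, with 2.63% and 10.5%. False calls thus ran above the nominal rate in most of these draws. Alternatives covered scaling, offset, filter, probe sets, the variance model, each array left out, the block, the baseline, each genotype alone and a 2-fold threshold.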

Additional observations from a re-analysis of the deposited data

Results flagged for a closer look

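Of 96 named genes, 5 had 1 array far from the other 3 among the 4 arrays at 0 and 15 min; chance sets about 1 in 20 such groups apart. On the log2(signal + 4.6) scale Acrbp stood at 6.61 on the WT 0 min array (next 6.12) and AA386476 at 6.58 on the same array (next 5.96), so the baseline of both falling genes was highest there. Ereg was lowest on that array, at 7.50 (next 7.80), and Grb2 was highest on the Hey2 KO 0 min array, at 8.97 (next 8.67). Ifrd1 was highest on the WT 15 min array, at 9.49 (next 9.21).

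The change of Rasl11b at 30 min differed between the genotypes by -2.43, the only such difference that passed the test.

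Probe sets with no gene symbol or several were outside the gene tests. Of 5224 such probe sets that passed the filter, 9 were called higher and 13 lower at 30 min against 0 and 15 min. Among the 13738 genes tested, 83 (0.604%) were called higher and 10 (0.0728%) lower. Falls thus outnumbered rises in these probe sets but not in the genes.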

How the results depend on the processing

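The numbers of calls for 30 against 0 and 15 min, 15 against 0 min, 30 against 15 min and the genotype difference were 93, 12, 68 and 1. Quantile normalization of the 6 arrays alone, cyclic loess, either offset, the 60th percentile filter and the mean over probe sets kept them within 1.5 times, as did one trimmed mean and robust moderation except for a genotype count of 2 in each. With the signals as deposited they were 11, 0, 3 and 10152 (median over all genes -0.59, -0.32, -0.43 and 1.62), and 62 genes had an unadjusted p under 0.05 at 15 min. Without the intensity trend they were 6, 0, 3 and 0, with 949 unadjusted for the last. Without a filter, which adds dim genes to the test, the 30 min counts against 0 and 15 min and against 15 min were 44 and 34, and with the spread shared with the 120 to 240 min arrays 60 and 32. The first was 3 without the genotype block and 52 with a 2-fold threshold; in WT arrays alone it was 114 and 64.9% of calls were higher, in Hey2 KO arrays alone 65 and 86.2%, against 83 of 93 in the main comparison. Leaving out 1 array at a time gave 23 to 87, 5 to 31, 18 to 132 and 1 to 9; the genotype difference could not be fitted without either 30 min array. The cause of these differences was not tested. All 93 genes kept their sign in each of these settings that tested them, except for 5 with the deposited signals and 2 with the mean over probe sets.

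Of 96 named genes these changed sign with the deposited signals: Hmga2 (-0.47), Pnmt (-0.31), Hey2 (-0.60), Sos2 (-0.41), Id2 (-0.10), Pcna (-0.26), Actb (-0.24), Ddit3 (-0.02), Fosl2 (-0.09) and Zfp36l1 (-0.08). With one trimmed mean these did: Pdgfrb (0.10), Hey2 (-0.04) and Acta2 (0.23), and with cyclic loess Pdgfrb (0.04), Hey2 (-0.04) and Acta2 (0.13). The labels give no replicate numbers; times were paired within genotype by the genotype block. For 30 against 0 min and for the gene lists, leaving out each array was added after the data were seen: the 89 calls against 0 min ranged from 72 to 148.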
